A study of Mus musculus with 4 samples.

Results

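The enzymes that make asparagine, glutamine, alanine, aspartate, proline and cysteine were followed across 4 RNA sequencing libraries. They are 9 of the 23258 genes in the deposited table, taken by gene symbol: ASNS, GLUL, GPT2, GOT1, GOT2, ALDH18A1, PYCR1, CBS and CTH. The genes were chosen by enzyme role, with the KO over WT fold changes of these libraries already known (that of ASNS above all). Their values are therefore described. No p-value is printed for them, and where they are among genes passing a p limit, that is given as description only. The libraries carry the label of gastric tumours from C57BL/6 mice of both sexes at 20 weeks after birth. WT libraries (n = 2) come from wild-type mice, and KO libraries (n = 2) from Mst4 F/F UBCcre mice, in which Cre under the widely active ubiquitin C promoter removes floxed Mst4 (the kinase gene STK26 in human). How the tumours arose, whether WT mice carried Cre, and whether replicate libraries represent different animals are not stated in the labels, so any p-value measures only the spread between these libraries.

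These amino acids are called non-essential because cells can build them from glucose carbon and from the nitrogen of glutamine and glutamate. Transaminases move that nitrogen between amino acids, a pair of enzymes turns glutamate into proline, and transsulfuration passes the sulfur of homocysteine to cysteine. When amino acids run short, the kinase GCN2 (EIF2AK4) and the transcription factor ATF4 raise several of these genes, of which ASNS is the textbook example.

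All 23258 row identifiers carry the taxon number of human, and the gene symbols are human, although the labels give mouse. Genes therefore appear under their human symbols, and WT and KO refer to labels only. Totals were 30505281 estimated counts in WT replicate 1 and 18613533 to 18804535 in the other libraries. STK26, the targeted gene, was at 54.2 and 54.9 CPM (read counts scaled to library size) in WT and at 9.07 and 7.36 CPM in KO, a 6.64-fold lower mean. The deposited length-scaled values (FPKM) gave 3.14-fold, with 17.2 in each WT library, against 5.22 and 5.75 in KO. WT replicate 1 stood apart from the rest: in a set of 11959 genes that averaged at least 5 CPM, 20.4% differed over 2-fold within WT and 0.443% within KO. Of 10 gastric gland markers, 8 were under 1 CPM in every library, TFF2 was at 0 in all of them, and PSCA (68.3 to 235 CPM) and ATP4A (4.96 to 11.4 CPM) were the exceptions. Of the general epithelial markers, KRT8, KRT18 and EPCAM were detected above 1 CPM, whereas CDH1 and KRT19 were not. In bulk tissue, fewer cells of a type cannot be told apart from less RNA per cell.

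Asparagine synthetase and both enzymes of cysteine synthesis were the genes that differed most. ASNS, CBS and CTH were 3.71 to 6.58 times as high in WT replicate 1 as in WT replicate 2. WT replicate 2 in turn was 1.77 to 2.40 times as high as the mean of the KO libraries. These ranges take CBS without its near-identical copy CBSL, and both steps of CBS were smaller with CBSL added. The proline enzymes ALDH18A1 and PYCR1 and the alanine transaminase GPT2 were also highest in WT replicate 1, but they lay closer together in the other libraries. The aspartate transaminases GOT1 and GOT2 went the other way and were lowest in WT replicate 1. GLUL was close to the detection limit everywhere.

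**Figure D1:**
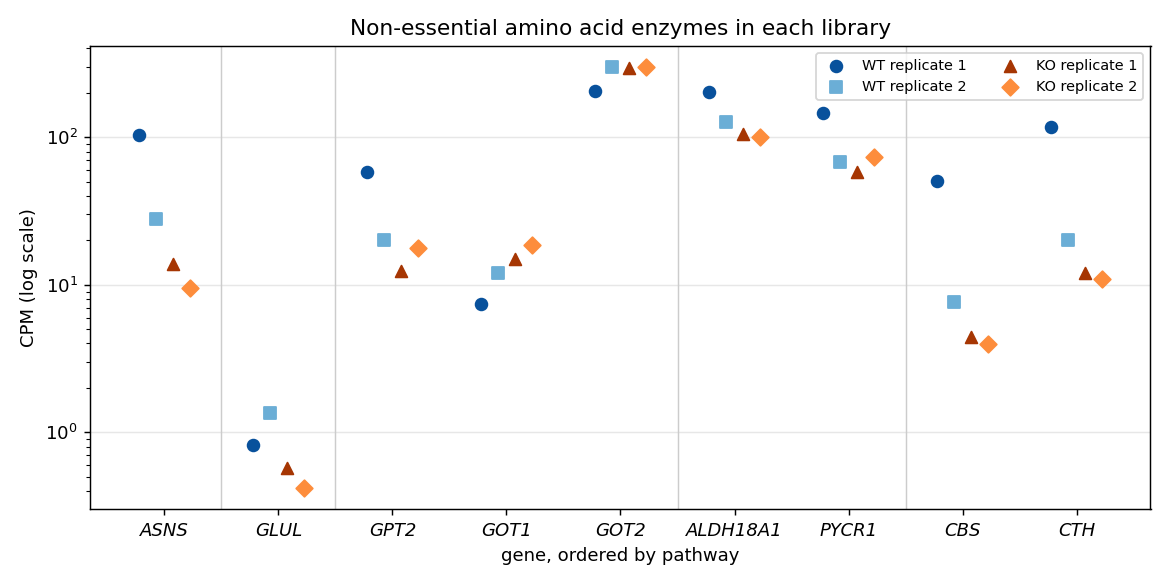
CPM of each enzyme gene (log axis) in the 4 libraries, 1 point a library, with vertical lines between asparagine, glutamine, transaminase, proline and cysteine enzymes. WT replicate 1 is the highest point for ASNS, GPT2, ALDH18A1, PYCR1, CBS and CTH and the lowest for GOT1 and GOT2; levels should not be compared between genes on this scale, which ignores transcript length.

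ASNS, which makes asparagine from aspartate with glutamine as nitrogen donor, was at 104 and 28.1 CPM in WT, against 13.8 and 9.56 CPM in KO. Pairs of values are given in the order of replicates 1 and 2 throughout. Both KO values were below both WT values, and the gap between the WT libraries was wider than the gap from WT replicate 2 to KO. The means were 66.1 ± 53.7 CPM in WT and 11.7 ± 3.02 CPM in KO (SD, n = 2 each). The fitted log2 fold change of KO over WT was -2.50 (SE 0.67) with all libraries. Without WT replicate 1 it was -1.26 (SE 0.18), and without WT replicate 2 it was -3.13 (SE 0.17). An SE from a fit without a WT library does not cover the spread within WT. The deposited length-scaled values, read as FPKM (fragments scaled by transcript length and library depth), were 45.8 and 12.4 in WT, against 6.54 and 4.46 in KO.

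GLUL, glutamine synthetase, joins ammonia to glutamate and is the source of glutamine made within a cell. After rounding, 24 and 25 reads were counted in WT, against 11 and 8 in KO. These are 0.815 and 1.35 CPM in WT, against 0.576 and 0.418 CPM in KO. The 95% exact Poisson intervals, which cover counting error only, were 0.523 to 1.21 and 0.875 to 2.00 CPM in WT and 0.288 to 1.03 and 0.180 to 0.823 CPM in KO. The interval of WT replicate 1 overlapped both KO intervals. That of WT replicate 2 overlapped the interval of KO replicate 1 but lay above that of KO replicate 2. On the FPKM scale WT replicate 1 and KO replicate 1 were equal, at 0.11, with 0.24 in WT replicate 2 and 0.05 in KO replicate 2. All 9 enzymes passed the filter on low counts, which asked for about 0.533 CPM in at least 2 libraries. GLUL met it in both WT libraries and in KO replicate 1.

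GPT2, the mitochondrial alanine transaminase, was at 58.6 and 20.1 CPM in WT, against 12.5 and 17.7 CPM in KO. Both KO values were below both WT values, but KO replicate 2 lay close to WT replicate 2. The log2 fold change was -1.39 (SE 0.56), and -0.41 (SE 0.19) without WT replicate 1. Its cytosolic counterpart GPT had another pattern in CPM, at 5.03 and 9.52 CPM in WT, against 6.45 and 6.37 CPM in KO. On the FPKM scale GPT was at 0.42 and 0.40 in WT, against 0.28 and 0.28 in KO, so both KO values were below both WT values. The transcript length implied by its count, FPKM and library total was uneven, however. It was 11.6 kb in WT replicate 1 and 23.2 to 23.6 kb in the other libraries. The FPKM order of GPT is therefore not read as a likeness to GPT2.

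GOT1 and GOT2 are the cytosolic and mitochondrial aspartate transaminases, which interconvert aspartate and glutamate and serve the malate-aspartate shuttle. GOT1 was at 7.37 and 12.1 CPM in WT, against 14.9 and 18.6 CPM in KO, so that both KO values were above both WT values. Its log2 fold change was 0.79 (SE 0.36), and 0.48 (SE 0.20) without WT replicate 1. GOT2 was at 206 CPM in WT replicate 1, and the others measured 299.7 (WT replicate 2), 294 and 299 CPM (KO). Values of these libraries lie within a few CPM of each other, and the fitted change of GOT2 was 0.23 (SE 0.27) with all libraries and -0.01 (SE 0.14) without WT replicate 1. GOT2 over GOT1, on the FPKM scale, was 10.6 and 10.5 in WT and 7.73 and 8.25 in KO. That ratio was nearly the same in the WT libraries, although these were far apart for most of the other enzymes. The match was less close in CPM. There WT replicate 2 was 1.64-fold above WT replicate 1 for GOT1 and 1.45-fold for GOT2.

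Proline is made from glutamate in a short mitochondrial route that opens with ALDH18A1 (pyrroline-5-carboxylate synthase) and can close with PYCR1 (pyrroline-5-carboxylate reductase). ALDH18A1 was at 204 and 128 CPM in WT, against 105 and 101 CPM in KO. The groups did not overlap, the KO libraries were close together, and the WT libraries were 1.60-fold apart. The log2 fold change was -0.69 (SE 0.30), and -0.31 (SE 0.15) without WT replicate 1. PYCR1 was at 146 and 67.5 CPM in WT, against 58.1 and 73.2 CPM in KO. Here KO replicate 2 lay above WT replicate 2, so the groups overlapped, and the log2 fold change of -0.70 (SE 0.42) was -0.04 (SE 0.17) without WT replicate 1. In FPKM, PYCR1 over ALDH18A1 was 1.32 and 0.997 in WT and 1.04 and 1.32 in KO.

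Transsulfuration has a pair of steps: CBS joins homocysteine to serine, and CTH splits the cystathionine so formed and releases cysteine. CTH was at 117 and 20.3 CPM in WT, against 12.1 and 10.9 CPM in KO. CBS was at 50.5 and 7.68 CPM in WT, against 4.40 and 3.97 CPM in KO. For both genes the KO libraries were within 1.11-fold of each other and below both WT libraries, while WT replicate 1 was several times WT replicate 2. The log2 fold changes were -2.59 (SE 0.83) for CTH and -2.80 (SE 0.90) for CBS with all libraries. Without WT replicate 1 they were -0.82 (SE 0.19) and -0.87 (SE 0.28). CTH over CBS in FPKM was 2.40 and 2.23 in WT and 2.82 and 2.31 in KO. With CBS taken without its copy CBSL, the ratio of the genes thus varied far less than either level.

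CBS values depend on how reads were shared with CBSL, a near-identical copy that the table lists as a gene of its own. CBSL was at 26.7 and 10.9 CPM in WT, against 10.3 and 8.98 CPM in KO. Of the counts given to either gene, CBS held 65.4% and 41.3% in WT, against 30.0% and 30.5% in KO. The sum of both was 77.2 and 18.6 CPM in WT, against 14.7 and 13.0 CPM in KO, in the same order of libraries as CBS alone. With both counted as 1 gene, a choice made after seeing the data, the log2 fold change was -1.80 in place of -2.80. CTH, at 117 and 20.3 CPM in WT, against 12.1 and 10.9 CPM in KO, did not keep a steady ratio to the sum. It was above the sum in both WT libraries and below it in both KO libraries.

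**Figure D2:**
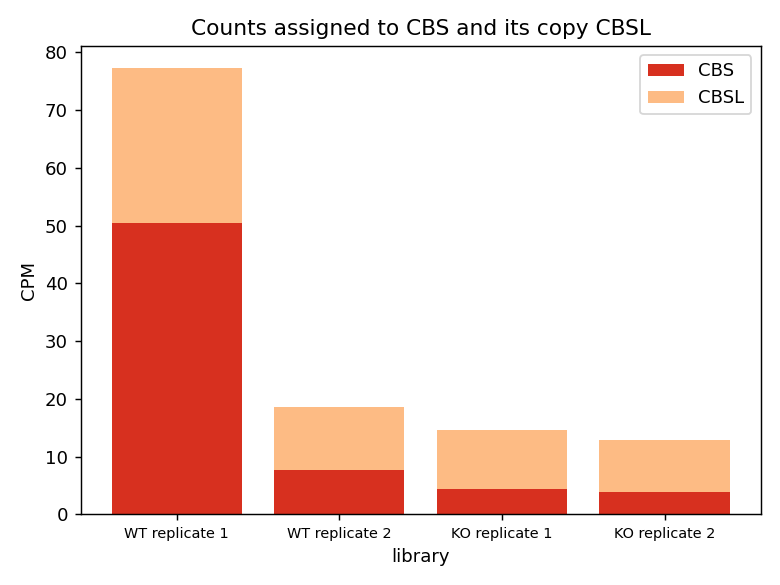
CPM assigned to CBS (dark) and to its near-identical copy CBSL (light), stacked, in each library. The sum runs from 77.2 CPM in WT replicate 1 to 13.0 CPM in KO replicate 2, and the share held by CBS is 65.4% in the first and 30.5% in the last.

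Levels of the enzymes can be compared with each other on the length-scaled FPKM values. GOT2 was the highest in every library, at 76.3 and 109.7 FPKM in WT and 111 and 114 FPKM in KO, and GLUL the lowest. PYCR1 and ALDH18A1 came next in every library, with PYCR1 at 71.1 and 33.4 FPKM in WT and 29.8 and 37.5 FPKM in KO, and ALDH18A1 at 54.1 and 33.5 FPKM in WT and 28.6 and 28.4 FPKM in KO. In WT replicate 2 these enzymes were nearly equal and could not be ordered. CTH, at 42.6 FPKM, was close to ASNS in WT replicate 1, and had 5.73 FPKM in WT replicate 2, against 3.66 and 3.19 FPKM in KO. GOT1 was at 7.20 and 10.4 FPKM in WT and 14.4 and 13.8 FPKM in KO. It was therefore below ASNS in both WT libraries and above it in both KO libraries. CBS was at 17.7 and 2.57 FPKM in WT and 1.30 and 1.38 FPKM in KO, and GPT2 at 13.2 and 4.78 FPKM in WT and 3.10 and 4.20 FPKM in KO.

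Counts and FPKM did not give the same contrasts for every gene, STK26 being one such case (implied length 3.03 and 3.13 kb in WT, against 1.78 and 1.31 kb in KO). The transcript length implied by a gene's count, FPKM and library total was steady for ASNS, at 2.17 to 2.23 kb. For CTH it was 2.66 kb in WT replicate 1 and 3.39 to 3.48 kb elsewhere, and the WT libraries were 5.80-fold apart in CPM but 7.44-fold apart in FPKM. For GOT1 it was 0.989 and 1.14 kb in WT and 1.06 and 1.39 kb in KO, and the KO libraries were 1.25-fold apart in CPM but nearly equal in FPKM. On the FPKM scale both KO values of GOT2 were above both WT values, whereas in CPM they overlapped.

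Taking the enzymes as a list, 7 of 9 had a lower fitted level in KO, against 51.4% of the 16030 genes tested. The median log2 fold change was -1.10, against -0.01 over all genes tested. Without WT replicate 1, 8 of 9 were lower, against 48.3%, and the median was -0.41, against 0.01. In CPM both KO values were below both WT values for 6 genes (all but GOT1, GOT2 and PYCR1), against 19.1% of all genes tested, and above both for GOT1, against 18.3%. On the FPKM scale 5 genes were below, against 14.9%, and GOT1 and GOT2 above, against 22.2%. Since differences in the same contrast were known when the list was drawn up, nothing is read from these counts.

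**Figure D3:**
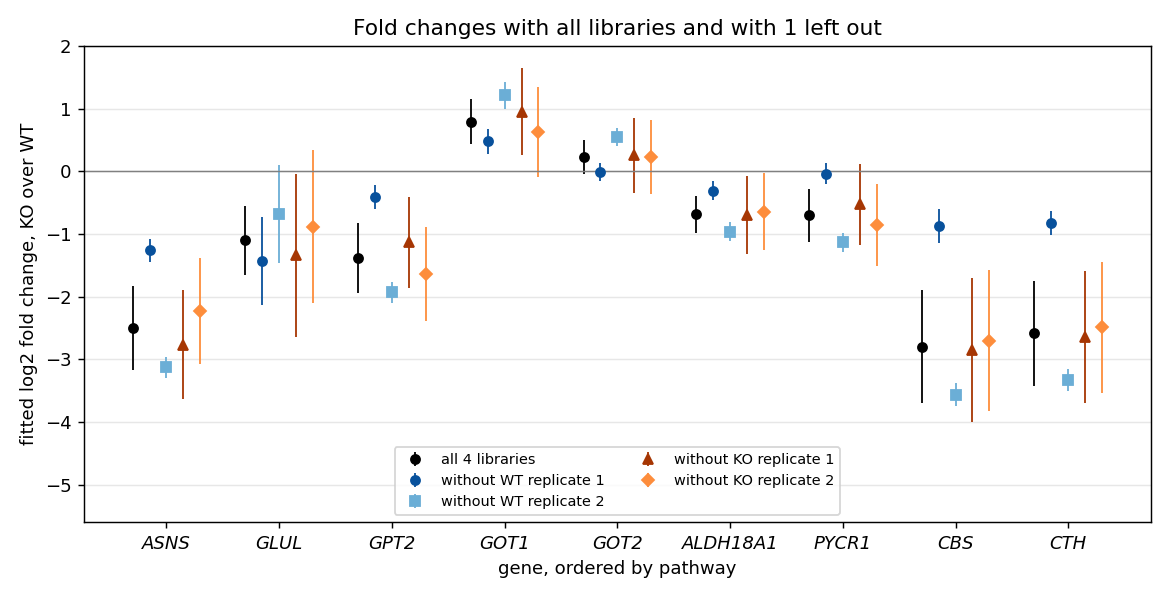
Fitted log2 fold change of KO over WT (edgeR; bars, 1 SE) with all 4 libraries and with each library left out in turn. Leaving out WT replicate 1 takes ASNS from -2.50 to -1.26, CBS from -2.80 to -0.87 and CTH from -2.59 to -0.82, and brings PYCR1 and GOT2 close to 0.

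The comparison of KO with WT over all genes asked what changes when the kinase is lost. The quasi-likelihood test of edgeR called 0 of 16030 genes (0%) at an adjusted p under 0.05, and so none of the 9 enzymes. It did not call STK26, the targeted gene, either (log2 fold change -2.73, SE 0.26, edgeR adjusted p = 0.834). DESeq2 called STK26 lower (adjusted p = 8.49e-12). The lack of edgeR calls with all libraries therefore cannot be read as a lack of change. At an unadjusted p under 0.05 it held 668 genes (4.17%), ASNS, CBS and CTH among them. DESeq2 called 34 genes lower in KO (0.212%), of which ASNS was the only enzyme here, and 6 higher (0.0374%). Without WT replicate 1, edgeR called 647 genes lower (3.93%), with ASNS, CBS and CTH among them, and 418 higher (2.54%), with none of the 9. These calls come from the contrast that was known when the genes were chosen and are given as description.

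The libraries of each genotype were also set beside each other, since the fits rest on their spread. Of the 8 enzymes that averaged at least 5 CPM, 5 were over 2-fold higher in WT replicate 1 than in WT replicate 2 (ASNS, GPT2, PYCR1, CBS and CTH), against 11.5% of all such genes. None was over 2-fold lower, against 8.86%. Between the KO libraries 0 of 8 were over 2-fold apart, against 0.443% of all such genes. The widest gap among the 8 was that of ASNS, at 1.45-fold. WT replicate 2 was over 1.5-fold above the mean of KO for ASNS, CBS and CTH, against 3.95% of all such genes, and over 2-fold above it for ASNS, against 0.836%. It was 1.34-fold above for GPT2, 1.24-fold for ALDH18A1 and 1.03-fold for PYCR1, and for GOT1 the mean of KO was 1.39-fold above WT replicate 2.

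**Figure D4:**
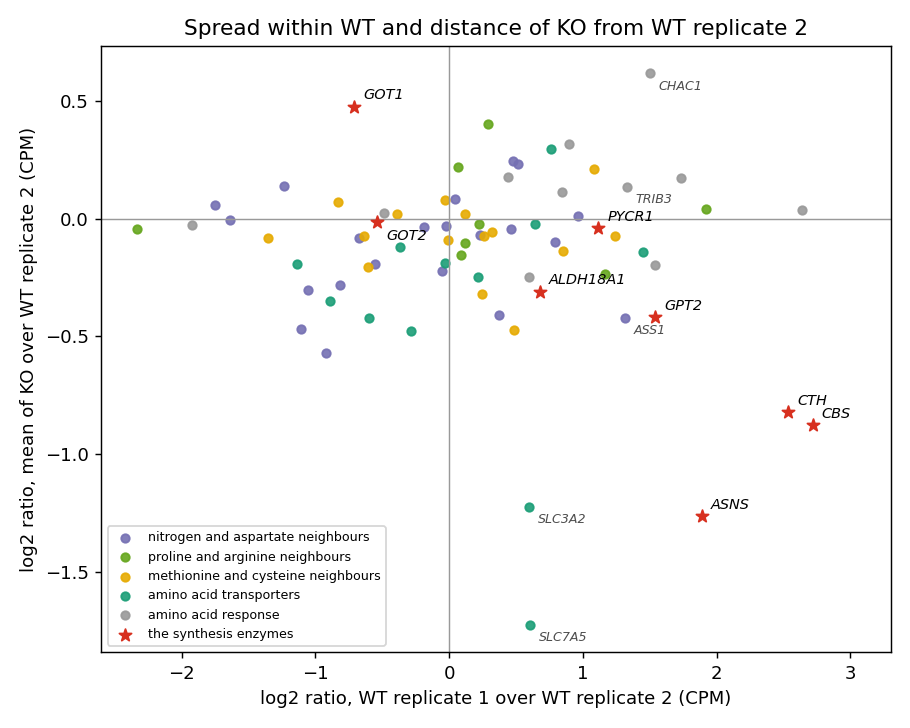
For each gene averaging at least 5 CPM, the log2 ratio of WT replicate 1 over WT replicate 2 (x axis) and of the KO mean over WT replicate 2 (y axis), in CPM; red stars are the synthesis enzymes without GLUL, dots the genes of 5 related lists. ASNS, CBS and CTH lie far to the right and low, and GPT2 and PYCR1 to the right and nearer to 0 on the y axis. SLC7A5 and SLC3A2 lie low with a small ratio within WT. CBS is plotted without CBSL.

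Genes that neighbour these enzymes in metabolism were read from 5 lists of pathway membership, 72 genes tested in all. The edgeR test called none of them with all 4 libraries, and 4 had an unadjusted p under 0.05, against 4.17% of all genes tested. DESeq2 called SLC7A5 and SLC3A2 lower, against 0.212% of all genes tested. Without WT replicate 1 the log2 fold changes of SLC7A5, SLC3A2, ASS1 and AHCYL1 were -1.72, -1.22, -0.42 and -0.47. Across the 72, 48 were lower and 24 higher, against 51.4% lower of all genes tested. The median log2 fold change was -0.18 with all libraries, against -0.01 over all genes tested. It was -0.07 without WT replicate 1, against 0.01.

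Among 23 genes that use or pass on the nitrogen of glutamine, glutamate and aspartate, 14 were lower and 9 higher, and none was called with all libraries. GLUD1, glutamate dehydrogenase, was at 201 and 155 CPM in WT, against 123 and 110.5 CPM in KO, with a fitted change of -0.61 on the log2 scale (SE 0.25, edgeR adjusted p = 0.834). ASS1, which joins aspartate to citrulline, was at 2089.9 and 840.3 CPM in WT, against 598 and 657 CPM in KO. With all libraries its log2 fold change was -1.22 (SE 0.47, edgeR adjusted p = 0.834). ASS1 fell by 0.42 (SE 0.13) without WT replicate 1, where the SE does not cover the spread within WT.

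Of 11 neighbours in proline and arginine metabolism, 7 were lower and 4 higher, and none was called, with all libraries or without WT replicate 1. The cytosolic reductase PYCR3 was at 0 and 1.35 CPM in WT, against 1.78 and 0.679 CPM in KO. OAT, which links ornithine to the proline route, was at 57.3 and 52.8 CPM in WT, against 51.4 and 46.7 CPM in KO. The collagen prolyl hydroxylases P4HA1 and P4HA2, with the smallest p of the list, did not pass (edgeR adjusted p = 0.834 for each). P4HA2 was at 327 CPM in WT replicate 1, whereas WT replicate 2 had 86.4 CPM and KO 90.9 and 87.1 CPM.

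Of 15 tested neighbours in methionine and cysteine metabolism, 9 were lower and 6 higher. AHCYL1, a protein related to the homocysteine-producing enzyme AHCY, was at 341 and 243 CPM in WT, against 179 and 171 CPM in KO, and fell by 0.47 (SE 0.14, edgeR adjusted p = 0.0188) without WT replicate 1. With all libraries its adjusted p was 0.834 in edgeR. MTR, which returns homocysteine to methionine, was at 110.5 and 93.0 CPM in WT, against 78.3 and 70.5 CPM in KO (edgeR adjusted p = 0.834). GCLC, which commits cysteine to glutathione, was at 50.1 and 50.4 CPM in WT, against 47.6 and 47.2 CPM in KO. CDO1, which oxidises cysteine, was at 0.068 and 0.216 CPM in WT and at 0 in both KO libraries and was not tested.

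Of 12 amino acid transporters tested, 9 were lower in KO and 3 higher, and edgeR called none with all libraries. SLC7A11, which imports cystine, was at 95.2 and 82.1 CPM in WT, against 74.8 and 63.5 CPM in KO (-0.36 on the log2 scale, SE 0.23, edgeR adjusted p = 0.834). The glutamine transporter SLC1A5 was at 401 and 236 CPM in WT, against 268 and 312 CPM in KO. SLC7A5, which carries large neutral amino acids, stood at 2769 and 1823 CPM in WT, against 507 and 597 CPM in KO, and its partner SLC3A2 at 1094 and 724 CPM in WT, against 295 and 325 CPM in KO. DESeq2 called both lower with all libraries (adjusted p = 1.77e-05 and 0.00598), whereas edgeR did not (adjusted p = 0.834 for each).

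The amino acid response list held 11 genes. Of these, 5 (ATF3, CEBPB, TRIB3, CHAC1 and VLDLR) were over 2-fold higher in WT replicate 1 than in WT replicate 2. The share among all genes averaging at least 5 CPM was 11.5%. ATF5 was over 2-fold lower, against 8.86% of such genes. In the fits 9 of the 11 were lower in KO with all libraries and 3 without WT replicate 1. The shares of all genes tested were 51.4% and 48.3%. With all libraries edgeR called none of the 11. ATF4 was at 324 and 238 CPM in WT, against 265 and 273 CPM in KO. TRIB3, a pseudokinase induced with ATF4, was at 135 and 53.6 CPM in WT, against 54.7 and 63.1 CPM in KO. CHAC1, which degrades glutathione, was at 17.4 and 6.16 CPM in WT, against 10.0 and 8.88 CPM in KO, and DDIT3, a stress transcription factor, at 51.9 and 27.8 CPM in WT, against 37.8 and 31.5 CPM in KO. VLDLR and ATF3, with the smallest p of the list, did not pass (edgeR adjusted p = 0.834 for each). VLDLR measured 17.2 and 2.76 CPM in WT, against 3.09 and 2.56 CPM in KO, and ATF3 measured 41.9 and 14.4 CPM in WT, against 12.7 and 12.4 CPM in KO.

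Summed markers of leukocytes, fibroblasts and endothelium were lower in both KO libraries than in either WT library in CPM. Most single fibroblast markers overlapped between genotypes, as did most genes tested. The summed level of 4 leukocyte markers was 20.2 to 35.4 CPM in WT and 14.6 to 18.3 CPM in KO, nearly all of it from CD68, while the pan-leukocyte gene PTPRC, LYZ and CD79A were under 1 CPM in every library. For 6 fibroblast markers the sum was 134 to 174 CPM in WT and 109 to 131 CPM in KO. It was carried by COL1A1, at 144 and 107 CPM in WT, against 83.2 and 105 CPM in KO. The fibroblast markers COL1A2 and PDGFRA were under 1 CPM in every library, so the sum is no measure of a fibroblast share. Of the 4 fibroblast markers tested, 3 overlapped in CPM and all 4 in FPKM. Among all genes tested, both KO values were below both WT values in CPM for 19.1% and above for 18.3%. In FPKM these shares were 14.9% and 22.2%. Since the remaining genes overlapped, nothing is read from the overlap of these markers. For 4 endothelial markers the sum was 6.16 to 8.09 CPM in WT and 2.88 to 4.81 CPM in KO, and PECAM1 overlapped, with 2.14 CPM in KO replicate 2 and 1.78 CPM in WT replicate 2. Of 4 liver markers, ALB, APOA1 and TAT were under 1 CPM in every library, whereas CPS1 was at 2547 to 4108 CPM. The part of these cell types in the levels of the enzymes was not tested.

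The genes most like ASNS were sought in the 11958 others that averaged at least 5 CPM, by the Euclidean distance between centred log2(CPM + 1) profiles over the 4 libraries. The 5 nearest were S100P, ITGA5, KRT17, CTH and NR4A1, at distances of 0.46 to 0.57. CTH ranked 4 and CBS 7, at 0.52 and 0.58. GPT2 ranked 227, PYCR1 993 and ALDH18A1 1035, and GOT2 and GOT1 ranked 9110 and 11336. All 5 nearest genes were highest in WT replicate 1 and lower in both KO libraries than in WT replicate 2. That order follows from their choice by likeness to ASNS, and nothing is read from it. KRT17 was at 283 and 101 CPM in WT, against 32.5 and 34.9 CPM in KO. Its step from WT replicate 2 to KO was larger than that of ASNS.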

How the data were processed

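Estimated counts and a second, length-scaled value per gene and library were deposited by the authors. HISAT2, Cufflinks and RSEM and the build GRCm38.p5 are named, per the submitters' processing notes, without roles or versions. The deposited second value is unnamed and was read as FPKM, because its columns sum to unequal totals (441772 to 452971). Neither annotation, filters nor strandedness is stated there.

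The estimated counts were rounded, filtered with filterByExpr and scaled by TMM (factors 0.966 to 1.026). The fit was edgeR 4.0.16 (quasi-likelihood, robust, genotype only) in R 4.3.3, with Benjamini-Hochberg adjustment over 16030 genes and calls at an adjusted p under 0.05. SEs were derived from the log2 fold change and the F statistic, as |log2 fold change|/√F. CPM used totals of the genes tested times the TMM factor. DESeq2 1.42.0, limma 3.58.1 and Python 3.11.15 served for alternatives and summaries, and the fits were tested on simulated data.

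The members and lists were chosen with earlier results of these data known. Named are the 9 enzymes, STK26, a fixed set of pathway counterparts (some of them not reported here), any related gene called by edgeR with all 4 libraries or else the 2 with the smallest p in each list, and the 5 genes nearest to ASNS. ASS1, AHCYL1, SLC7A5 and SLC3A2 came in by smallest p, and CEBPB and ATF5 by a gap over 2-fold between the WT libraries. CBSL and the genes of the closing section were chosen after their values were seen. No sequence or coordinate is given, because a human reference was not used here.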

Additional observations from a re-analysis of the deposited data

How the results depend on the processing

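The count of called genes, 0 in edgeR, was 40 in DESeq2 and 0 under RLE or upper-quartile scaling, other filters on low counts, limma-voom and limma-trend on FPKM with either pseudocount. Leaving out 1 library gave 0 to 8702 (1065 without WT replicate 1, 8702 without WT replicate 2, 0 without either KO library), and the lone sample is then assumed to vary like the other genotype. Among related genes the count was 2 in DESeq2 and 0 to 47 with 1 library left out (4 without WT replicate 1, 47 without WT replicate 2). The replicate number as a block gave 10 genes, none of them a related gene; the numbers are only shared labels (correlation of deviations between WT and KO replicate 1, -0.20). The crossed pairing, added after seeing the data, gave 4. The number of enzymes lower in KO (6 of 8 where GLUL was filtered out, otherwise 7 or 8 of 9) and their median (-0.41 to -1.14) kept their direction in every alternative, as did the 5 enzymes over 2-fold apart within WT. Of 88 values of single enzymes under other settings 87 moved by less than the replicate SD, and of 36 with 1 library left out 24 did. That SD includes the gap within WT and was 0.96 for ASNS, 1.29 for CBS and 1.24 for CTH in log2 units. For these genes the limit is wide and shows little stability: the move of CBS from -2.80 to -1.80 with CBSL added stayed inside it. Only GOT2 changed sign, at -0.01 without WT replicate 1. Depth limits GLUL, and the spread within WT limits ASNS, CBS and CTH.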

Other observations

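Nitrogen also enters the urea cycle route, of which CPS1 and ASS1 were among the more abundant transcripts of these lists. ASL, another enzyme of the route, was far lower, at 32.9 and 23.0 CPM in WT, against 24.6 and 29.4 CPM in KO. CPS1, which makes carbamoyl phosphate from ammonia in mitochondria, was at 541 and 634 FPKM in WT and 449 and 407.5 FPKM in KO. In CPM it was at 3493 and 4108 in WT and 2810.3 and 2547 in KO, with both KO values below both WT values, and unlike ASNS it was not highest in WT replicate 1. Its log2 fold change was -0.50 (SE 0.23, edgeR adjusted p = 0.834) with all libraries and -0.62 (SE 0.13) without WT replicate 1. The second SE does not cover the spread within WT, and CPS1 was chosen after its values were seen. ASS1 was at 1179 and 469.7 FPKM in WT and 347 and 380.4 FPKM in KO. ODC1, which turns ornithine into putrescine, had the reverse spread within WT, with 50.3 and 254 CPM in WT, against 255 and 237 CPM in KO.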
